A study of Mus musculus with 6 samples.

Results

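The histone genes were read in bulk total RNA of sorted prostate epithelial cells of the mouse. They were taken by gene symbol (symbols that begin with Hist1h to Hist4h, H1f, H2a, H2b, H3 or H4, without the H2- genes of the major histocompatibility complex), which found 113 of the 24498 rows of the count table. Of these rows 104 were histone genes, and 9 were no histone genes (8 pseudogenes and 1 antisense transcript) and are not described further. The 104 genes fell into 67 replication-dependent cluster genes (6 H1, 18 H2A, 18 H2B, 12 H3 and 13 H4) and 37 variant genes (5 H1, 26 H2A, 2 H2B and 4 H3). The table held no count in any library for 6 cluster genes and for 21 variant genes, among them 15 of the 18 germline H2al genes.

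There were 6 libraries in 3 groups of 2, all from male mice aged 7 to 13 weeks. The Clu intact group held marker-positive cells of mice with Clu-CreER(T2) and the tdTomato reporter at ROSA26 (allele Gt(ROSA)26Sortm14(CAG-tdTomato)Hze on B6.Cg). The Nkx castrate and Nkx intact groups held marker-positive cells of the line labelled Nkx, which carried its own CreER(T2) and the EYFP reporter at ROSA26 (allele Gt(ROSA)26Sortm1(EYFP)Cos on B6.129X1). Mice were castrated or left intact at 8 weeks of age and the prostate was taken 4 weeks later. Every group thus carried an inducible Cre recombinase and a fluorescent reporter, and the sort was aimed at cells in which the Cre had been active, with their descendants. How pure the sorted cells were was not tested. The Clu and Nkx groups differ in the gene that drives Cre and in the reporter, and these cannot be told apart from a difference between the cells. Whether both libraries of a group stem from different animals is not stated in the labels, so the p-values cover no more than the spread between them, and that can be technical. In bulk RNA fewer cells of a type and less RNA per cell cannot be told apart.

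Histones package DNA into nucleosomes, made of the core histones H2A, H2B, H3 and H4, with the linker histone H1 on the DNA between them. The replication-dependent genes lie in clusters of many near-identical copies, are transcribed mainly while DNA is copied in S phase, and give messenger RNAs without a poly(A) tail that end in a stem-loop. The stem-loop is bound by the stem-loop binding protein Slbp, which is needed for cutting, export and translation of these messages, and the messages are destroyed when DNA synthesis stops. The variant genes include those of H2A.Z, H3.3 and H1.0, with ordinary polyadenylated messages made throughout the cell cycle. They also include that of H2A.X, which carries a stem-loop as well. In differentiating cells, transcripts of some cluster genes are also known to run past the stem-loop and to receive a poly(A) tail. The libraries were made from total RNA, so that messages of both kinds could be measured.

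The stem-loops that set the cluster genes apart were read from the GENCODE M21 transcripts (build GRCm38), which held 65 of the 67 cluster genes. A 6-base stem that begins with GG and ends with CT, closed by a 4-base loop that begins with TT, was searched in whole transcripts. It was found after the coding part in 43 of the 65 genes. Of the 22 genes without this motif 15 have no annotated 3′ UTR, so that it could not be found there. In a search of only the last 300 bases it was found in 25 of 69 transcripts of cluster genes and in 3 of 58682 other protein-coding transcripts (0.00511%). Each line gives the form carried by 1 gene of that kind, 5′ to 3′ in the sense of the transcript, with the stem in capitals and the loop in lower case.
H3c2: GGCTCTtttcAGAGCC
H2bc12: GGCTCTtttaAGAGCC
H2ac20: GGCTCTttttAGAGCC
H4c4: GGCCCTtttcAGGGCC
H4c9: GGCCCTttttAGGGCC
H4c2: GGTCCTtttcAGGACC
H2ax: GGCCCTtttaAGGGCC
The form shown for H3c2 was carried by 25 cluster genes, that for H2bc12 by 6, that for H4c4 by 7, those for H4c9 and H4c2 by 2 each and that for H2ac20 by 1. All 32 genes of the H1, H2A, H2B and H3 families with a stem-loop had the first 6 bases of the H3c2 form, whereas the 11 H4 genes with a stem-loop had the other stems. Among the variant genes only H2ax, which encodes H2A.X and marks DNA breaks once phosphorylated, held the motif among the 35 genes with an M21 transcript. Of these 35 genes 13 have no annotated 3′ UTR.

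Depth lay between 10220118 and 17412874 counts per library, and 1 count was worth 0.0560 to 0.0987 CPM (CPM is the count of a gene divided by the library's total in units of 1000000, after scaling by trimmed mean of M-values, TMM). Nuclear 18S rRNA (Rn18s) took 2.25% to 5.34% of the counts and the mitochondrial rRNA genes took 5.29% to 8.57%. Reads of near-identical copies limit the cluster genes: a median of 42% of the 75-base stretches of a cluster gene's transcript also occurred in a transcript of another gene, and 29 of 65 genes shared over 50%. How reads that fit several copies were counted is not given in the sources used here, so a call on 1 such gene may belong in part to its copies. How far the level or lack of counts of such a gene depends on the shared sequence was not tested. Of the cluster genes without a count, H2ac18, H2ac19, H2bc18, H3c13 and H3c14 shared 100% of their stretches and H2ac1 shared 17.4%. Markers of other cells moved with the groups. Summed CPM of 10 endothelial markers was 387 to 959 in Clu intact, 56.5 to 373 in Nkx castrate libraries and 42.9 to 58.7 in Nkx intact libraries. For 14 fibroblast and smooth muscle markers the sums were 652 to 801, 644 to 2482 and 655 to 790.0 CPM in the same order, and for 19 leukocyte markers they were 46.5 to 49.4, 106 to 493 and 207 to 212 CPM. In the Nkx castrate group the highest of each of these sums came from replicate 1. The leukocyte genes Cd3g, Cd8a, Ms4a1 and Tyrobp were among those without a count in Clu intact, and Cd3g and Cd4 among those without one in Nkx intact. No endothelial or stromal marker was at 0 in a whole group. Epithelial markers also differed: 8 distal luminal markers summed to 6544 to 8466 CPM in Clu intact, 166 to 207 in Nkx castrate libraries and 14361 to 18684 in Nkx intact libraries, 11 proximal luminal and urothelial markers to 4468 to 4995, 688 to 936 and 396 to 397, and 10 basal markers to 3211 to 3305, 3179 to 4909 and 5078 to 5127. The part of these cells in the histone results was not tested.

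Cluster histone genes together took 0.0709% to 0.1002% of the counts of a library, and their sum was lowest in the Clu intact group, the group with the highest sums of cell cycle genes. Their summed level was 682 and 817 CPM in Clu intact, 824 and 866 in Nkx castrate libraries, and 1010 and 944 in Nkx intact libraries, with group means of 749.8 ± 95.3, 845 ± 29.7 and 977 ± 46.3 (SD, n = 2 each). Both Nkx intact libraries lay above the 4 others, and the Clu intact and Nkx castrate libraries lay next to each other without overlap. The ratio of group means was 0.866 for Nkx castrate over Nkx intact, 0.768 for Clu intact over Nkx intact and 0.887 for Clu intact over Nkx castrate. Variant genes summed to 1136 and 1046 CPM in Clu intact, 889 and 1051 in Nkx castrate libraries and 1113 and 1088 in Nkx intact libraries, and the ranges of the Clu intact group overlapped both others. In the same libraries 24 G2 and mitosis genes summed to 320.2 and 489 CPM in Clu intact, 89.6 and 67.7 in Nkx castrate libraries and 170.3 and 197 in Nkx intact. The sums of 30 S-phase genes were 426 and 693, 356 and 316, and 362 and 364 CPM in the same order of groups. These sums are descriptions without a test.

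**Figure D1:**
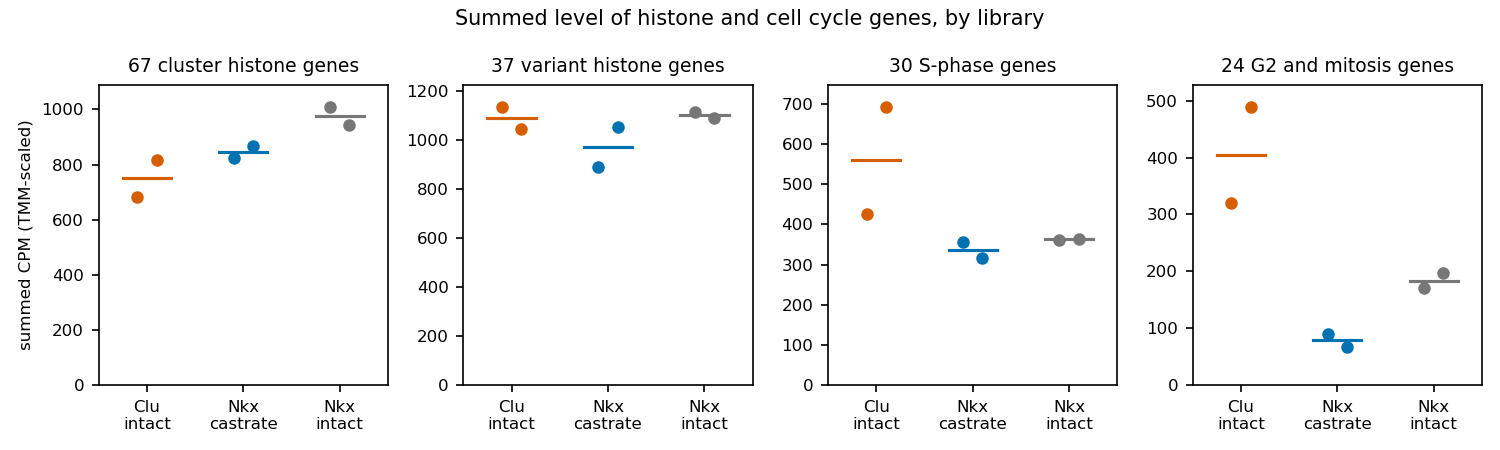
Summed CPM (TMM-scaled, linear axis from 0) of cluster histone genes, variant histone genes, S-phase genes and G2 and mitosis genes in each library (points) with the mean of the 2 libraries of a group (line). Clu intact is lowest for the cluster genes (682 and 817 CPM) and highest for the G2 and mitosis genes (320.2 and 489 CPM).

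A few genes carried most of the signal. The 4 cluster genes with a mean of at least 50 CPM (H1f2, H4c4, H1f4 and H1f3) held 62.1% of the mean cluster level, and 43 of the 67 reached a mean of 1 CPM. Per kilobase of annotated exon, H1f2 (linker histone H1.2) averaged 170 CPM per kb over the 6 libraries, H4c4 97.5, H1f4 (linker histone H1.4) 49.0 and H3c6 38.4, against a median of 6.17 CPM per kb over the tested cluster genes. H1f2 took 32.0% and 25.2% of the cluster counts in Clu intact, 39.4% and 32.1% in Nkx castrate libraries and 29.7% and 28.3% in Nkx intact libraries, so that the groups overlapped. Without H1f2 the ratio of cluster sums was 0.784 for Nkx castrate over Nkx intact and 0.988 for Clu intact over Nkx castrate. By family, H1 made up 51.7% and 46.9% of the cluster counts in Clu intact, 60.2% and 53.9% in Nkx castrate libraries and 51.1% and 46.6% in Nkx intact libraries. H2A had the fewest counts, with 4.04% and 4.45%, 2.44% and 1.64%, and 2.37% and 2.11% in the same order, and its Clu intact shares lay above the 4 others. How far family shares depend on sequence shared between copies was not tested. H4 ranged from 21.6% to 30.3% over all libraries. Among the variants, H3f3b (1 of the 2 genes that encode the same protein, H3.3) averaged 249 CPM per kb and took 66.8% and 62.9% of the variant counts in Clu intact, 76.4% and 72.8% in Nkx castrate libraries and 72.3% and 71.6% in Nkx intact libraries. Its share was lowest in both Clu intact libraries.

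**Figure D2:**
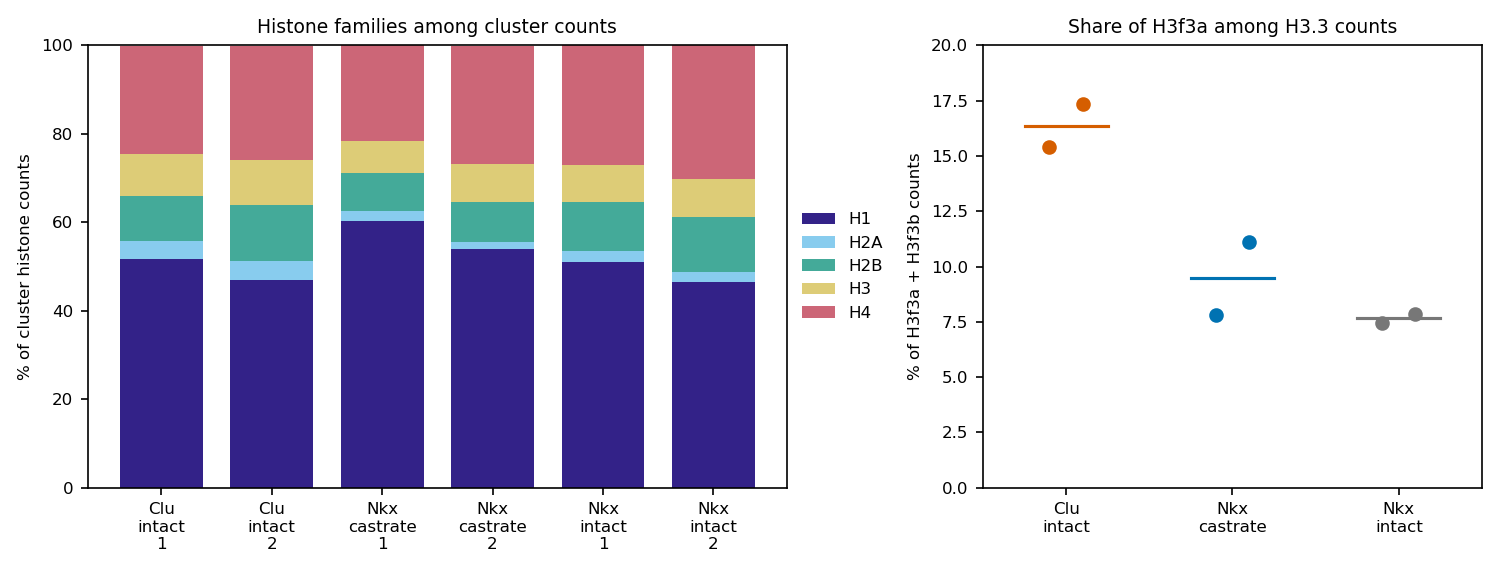
Left, share of cluster histone counts (percent, stacked to 100) held by each histone family in each library. Right, share of H3f3a in the counts of H3f3a and H3f3b together (points, libraries; line, mean of 2), which is above 15% in both Clu intact libraries and at most 11.1% in the 4 others.

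Tests were made for genes that passed a filter on low counts, 49 of the 67 cluster genes and 8 of the 37 variant genes. A gene is called where edgeR's quasi-likelihood test across all 13846 genes gave a Benjamini-Hochberg adjusted p under 0.05, two-sided. Of the 57 tested genes 12 were called in at least 1 of the 3 comparisons, 10 of them cluster genes. The 12 untested cluster genes with a count reached at most 0.296 to 2.82 CPM in their highest library, and the 8 untested variants with a count reached 0.0560 to 0.960. The comparisons share groups (Nkx intact serves as the control of 2 of them), so that their values are given side by side and not as separate evidence.

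In the Nkx line, castration went with lower levels of 2 cluster genes, H3c2 and H2bc12, and of 1 variant, H2az1. No histone gene was called higher. Of the 49 tested cluster genes 0 were called higher and 2 lower, beside 4.02% of all tested genes called higher and 4.59% called lower. The 2 called lower are no more than this background. At an unadjusted p under 0.05 the counts were 0 higher and 10 lower, a level at which all tested genes were not counted. With limma-voom 0 were called, beside 405 higher and 602 lower of all tested genes. With only the 2 groups fitted edgeR also called 0, beside 297 higher and 374 lower. DESeq2 called 0 higher and 4 lower, beside 1021 higher and 994 lower of all 13846 tested genes. More cluster genes were called lower without Nkx castrate replicate 1 or 2, and the calls were lost without any 1 of the other 4 libraries. The count over all tested genes rose and fell in the same fits. The median log2 fold change was -0.42 for the cluster genes, with 37 of 49 negative, and 0.05 for all tested genes. Genes without a count in a group, set at their bound, left the cluster median at -0.42 here and at -0.23 and 0.38 in the comparisons of Clu intact with Nkx intact and with Nkx castrate. H2B genes had 13 of 14 negative values (median -0.98), H3 genes 8 of 10 (-0.51), H4 genes 9 of 13 (-0.20), H2A genes 5 of 7 (-0.33) and H1 genes 2 of 5 (0.09).

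H3c2, which encodes a replication-dependent H3, had 0.280 and 0 CPM (5 and 0 counts) in Nkx castrate libraries and 4.59 and 2.47 CPM (48 and 25 counts) in Nkx intact libraries. The groups did not overlap, and in the Clu intact libraries the gene was at 6.07 and 12.7 CPM. The log2 fold change of Nkx castrate over Nkx intact was -4.45 ± 1.06 (SE, adjusted p = 0.0412, edgeR). H2bc12, an H2B gene, had no count in either Nkx castrate library, and 0.956 and 1.78 CPM (10 and 18 counts) in Nkx intact libraries. Against a floor of 3 counts over the castrate group it was at least 14.2-fold lower (adjusted p = 0.0426, edgeR). The stem-loops of both genes, shown above, lie close to the annotated end of their transcripts, with 51 and 30 bases after the loop. These calls rest on few counts and on the pooled spread. Without Clu intact replicate 1 or 2 or Nkx intact replicate 1 or 2 neither gene was called (adjusted p 0.0679 to 0.182 for H3c2 and 0.106 to 0.199 for H2bc12), while without Nkx castrate replicate 2 the log2 fold change of H3c2 was -3.61. Without Nkx castrate replicate 1 the castrate group had no count of H3c2, so that its fitted fold depends on the prior count and is not given. In their transcripts 58.6% (H3c2) and 72.6% (H2bc12) of the 75-base stretches were shared with other genes.

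H2ac4, an H2A gene whose transcript also ends 11 bases after the stem-loop, showed a like pattern without a call here. It had 2 and 1 counts in Nkx castrate libraries and 13 and 17 in Nkx intact libraries, and the ratio of the scaled counts was 0.0656 (95% counting interval 0.0128 to 0.211, counting error only) with an adjusted p of 0.0872. H3c3, another replication-dependent H3 gene, named here after its values were seen, had 1 and 2 counts in Nkx castrate libraries and 23 and 24 in Nkx intact libraries, also without a call (adjusted p = 0.0911, edgeR). M21 places exons of a gene model on the opposite strand across H2ac4, and the strand setting of the counting is not given in the sources used here.

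The promoters of the 2 genes called lower after castration are shown, since they were the 2 cluster genes called in this comparison. They are RefSeq windows of 300 bases (build GRCm38.p6, 250 bases before to 50 bases after the start, 5′ to 3′ in the sense of the gene), with matches to ATTTGCAT, CCAAT and TATAAA, on either strand, in capitals. H3c2 lies at chr13:23752095-23752394 on the plus strand and H2bc12 at chr13:22035571-22035870 on the plus strand.
H3c2: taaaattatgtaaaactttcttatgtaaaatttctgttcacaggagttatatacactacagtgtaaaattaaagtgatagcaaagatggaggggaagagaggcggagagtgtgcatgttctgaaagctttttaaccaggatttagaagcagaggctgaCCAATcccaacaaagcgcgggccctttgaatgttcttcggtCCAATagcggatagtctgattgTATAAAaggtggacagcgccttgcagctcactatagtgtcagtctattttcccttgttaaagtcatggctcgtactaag
H2bc12: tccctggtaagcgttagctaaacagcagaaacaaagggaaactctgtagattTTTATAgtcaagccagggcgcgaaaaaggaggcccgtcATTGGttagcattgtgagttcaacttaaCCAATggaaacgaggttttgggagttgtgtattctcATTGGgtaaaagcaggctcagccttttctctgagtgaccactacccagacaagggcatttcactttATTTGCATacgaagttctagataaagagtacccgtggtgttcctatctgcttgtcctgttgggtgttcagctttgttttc
ATTTGCAT is the octamer bound by the factor Oct1, known from H2B promoters. It stood in 7 of 15 H2B and 7 of 18 H2A genes with a window, in none of the 6 H1, 10 H3 and 12 H4 genes and in 1.74% of all 32851 RefSeq windows. A histone gene was counted once, if any of its windows held the motif, so that its counts and the share over all windows are unlike measures. CCAAT stood in all H1, H2A, H2B and H3 cluster genes with a window, in 3 of 12 H4 genes, in 12 of 34 variant genes and in 37.4% of all windows. TATAAA stood in 35 of 61 cluster genes, 4 of 34 variant genes and 13.6% of all windows. The motifs share no base with each other in the 2 windows shown, and a match is a match of letters only.

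Of the 8 tested variants 1 fell after castration and 0 rose, beside 4.59% of all tested genes called lower and 4.02% called higher. The counts were the same at an unadjusted p under 0.05, by DESeq2 and by limma-voom, while 0 were called with only the 2 groups fitted. H2az1 encodes H2A.Z, a variant placed at promoters and regulatory elements. It had 53.8 and 45.8 CPM in Nkx castrate libraries and 92.0 and 90.1 CPM in Nkx intact libraries, without overlap. The log2 fold change was -0.87 ± 0.18 (SE, adjusted p = 0.0265, edgeR), a 1.83-fold lower level, and all but 28.8% of its 75-base stretches were its own. The call was lost without Clu intact replicate 1 or 2 or Nkx intact replicate 1 or 2 (adjusted p 0.0719 to 0.167), with a log2 fold change between -0.89 and -0.87. The second H2A.Z gene, H2az2, had 16.01 and 34.9 CPM in Nkx castrate libraries and 36.1 and 24.3 CPM in Nkx intact libraries, which overlapped (log2 fold change -0.25 ± 0.39, adjusted p = 0.764).

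**Figure D3:**
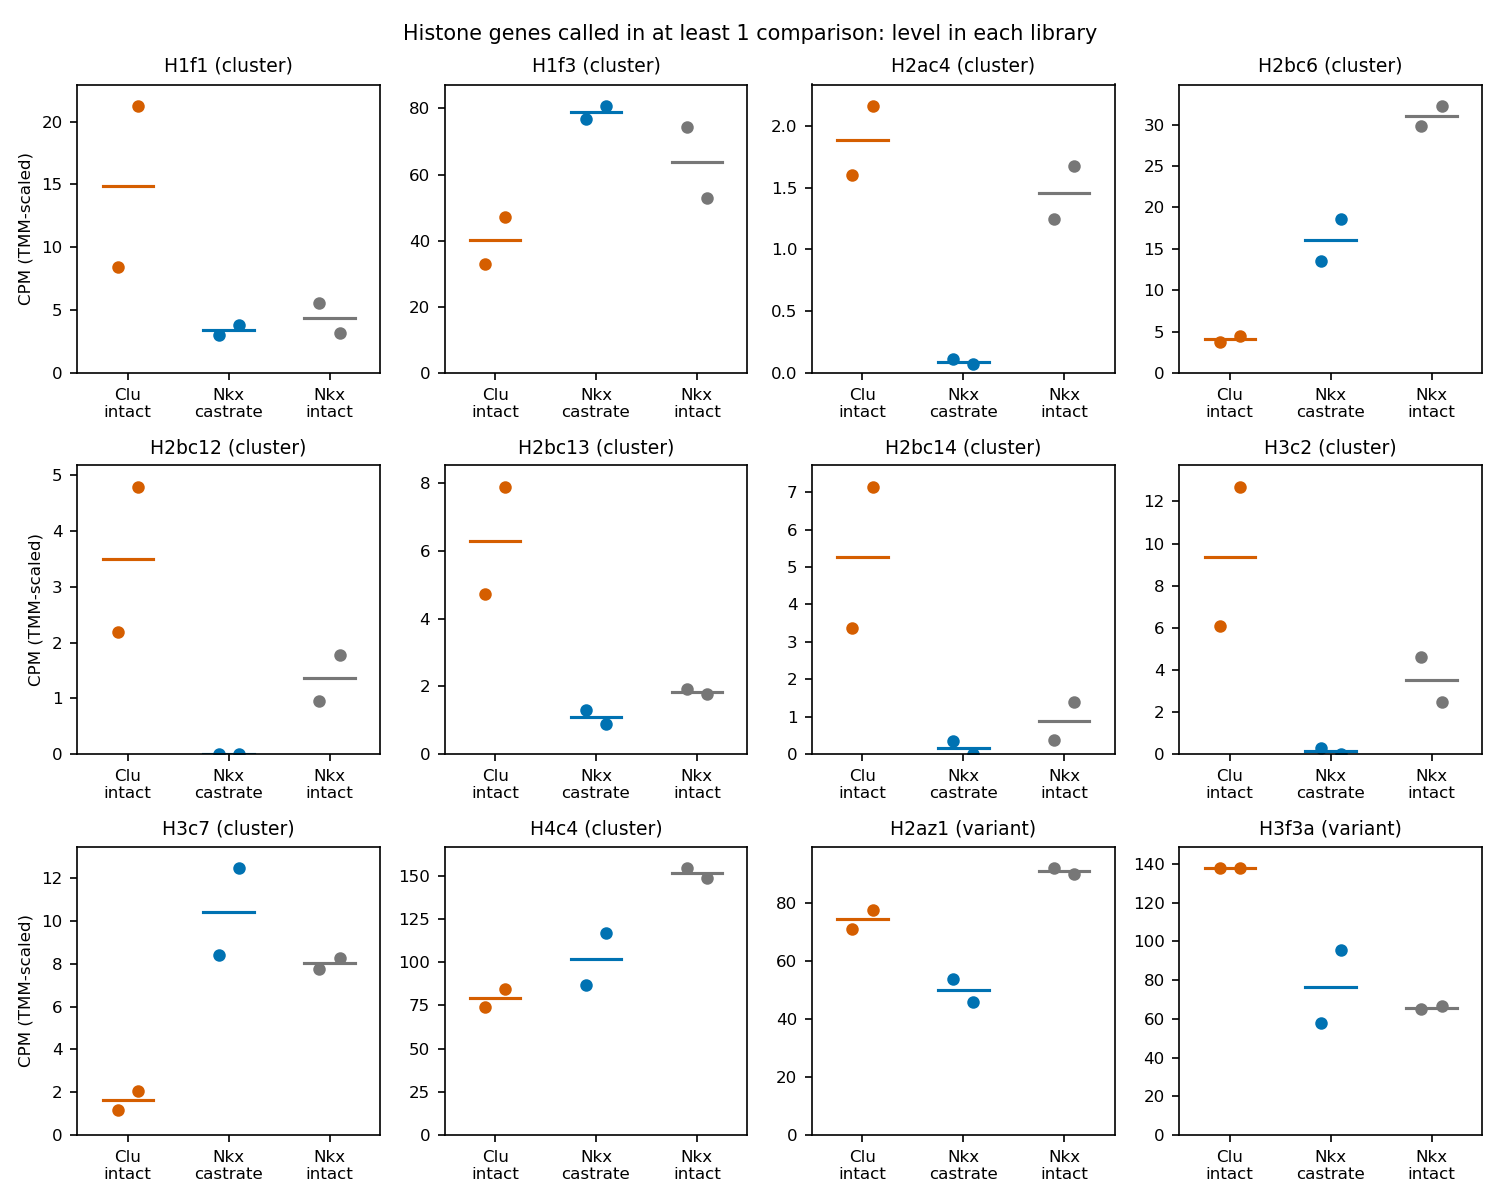
CPM in each library (points; line, mean of 2; each panel has its own linear axis from 0) of the 12 histone genes called in at least 1 comparison, with Clu intact, Nkx castrate and Nkx intact from left to right. H3c2, H2bc12, H2ac4 and H2bc14 are near 0 in Nkx castrate, H2bc6 and H3c7 are lowest in Clu intact, and H3f3a is highest there.

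Between the intact groups, cells of the Clu line held less of 3 cluster genes, H2bc6, H3c7 and H4c4, and more of 1 variant, H3f3a. Of the 49 tested cluster genes 0 were called higher and 3 lower, beside 6.29% of all tested genes called higher and 5.0% called lower. The 3 called lower are near this background. The unadjusted counts under 0.05 were 5 higher and 8 lower, a level at which all tested genes were not counted. DESeq2 called 1 higher and 5 lower, beside 1317 higher and 1136 lower of all 13846 tested genes. More cluster genes were called without Nkx castrate replicate 1 or 2, which serve only the estimate of spread here. Fewer were called without any 1 of the 4 libraries compared. The count over all tested genes rose and fell in the same fits. The median log2 fold change of the cluster genes was -0.23, with 25 of 49 negative, and that of all tested genes was -0.01.

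H2bc6, an H2B gene, had 3.79 and 4.51 CPM in Clu intact, 13.5 and 18.6 in Nkx castrate libraries and 29.8 and 32.3 in Nkx intact libraries. The 3 groups did not overlap. The log2 fold change of Clu intact over Nkx intact was -2.90 ± 0.32 (SE, adjusted p = 0.00171, edgeR), or 7.47-fold lower, and it was past the threshold in every alternative run, including each left-out library. RefSeq gives H2bc6 2 start sites, and the M21 transcripts of H2bc6 and of the linker gene H1f4 have overlapping exons on the same strand. H1f4 itself had 77.2 and 85.0 CPM in Clu intact and 123 and 109.6 CPM in Nkx intact libraries (log2 fold change -0.52 ± 0.17, adjusted p = 0.101). The window at the H2bc6 start that lies next to its coding part (chr13:23585921-23586220, minus strand, GRCm38.p6) is shown because this call held under the alternatives run, with the octamer and CCAAT in capitals.
H2bc6: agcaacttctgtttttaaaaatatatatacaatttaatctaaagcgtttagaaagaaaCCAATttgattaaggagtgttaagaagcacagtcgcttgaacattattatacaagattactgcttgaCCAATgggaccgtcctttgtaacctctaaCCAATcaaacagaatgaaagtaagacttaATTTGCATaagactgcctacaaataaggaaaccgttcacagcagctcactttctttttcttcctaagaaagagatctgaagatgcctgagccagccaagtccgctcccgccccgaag
The window of H2bc6 and that of H2bc12 both hold the octamer and 3 CCAAT matches. Both genes had higher values in Nkx intact than in Nkx castrate libraries, and they differed in the place of Clu intact, where H2bc12 was highest (2.19 and 4.79 CPM) and H2bc6 was lowest.

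H3c7, another replication-dependent H3 gene, had 1.18 and 2.07 CPM in Clu intact and 7.74 and 8.29 CPM in Nkx intact libraries, without overlap. Its log2 fold change was -2.30 ± 0.51 (SE, adjusted p = 0.0271, edgeR). H4c4, the H4 gene with the highest level per kilobase, had 73.9 and 84.6 CPM in Clu intact and 155 and 149 CPM in Nkx intact libraries, with a log2 fold change of -0.94 ± 0.20 (SE, adjusted p = 0.0225, edgeR) and only 3.7% of its 75-base stretches shared. Both calls were lost without any 1 of the 4 libraries compared, Clu intact replicate 1 or 2 and Nkx intact replicate 1 or 2, with adjusted p from 0.0921 to 0.187 for H3c7 and from 0.124 to 0.192 for H4c4, while the log2 fold changes stayed between -2.74 and -1.94 and between -1.02 and -0.83.

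Of the 8 tested variants 1 was higher in Clu intact and 0 were lower, beside 6.29% of all tested genes called higher and 5.0% called lower. H3f3a, the other H3.3 gene, had 138 CPM in both Clu intact libraries and 64.9 and 66.4 CPM in Nkx intact libraries. The log2 fold change was 1.07 ± 0.25 (SE, adjusted p = 0.0299, edgeR), or 2.10-fold higher. H3f3b, which encodes the same protein, was at 758 and 658 CPM in Clu intact and 804 and 779 CPM in Nkx intact libraries (log2 fold change -0.16 ± 0.17, adjusted p = 0.615). H3f3a thus made up 15.4% and 17.3% of the counts of both genes in Clu intact libraries, 7.83% and 11.1% in Nkx castrate libraries and 7.47% and 7.86% in Nkx intact. The call was lost without any 1 of the 4 libraries compared (Clu intact replicate 1 or 2, Nkx intact replicate 1 or 2; adjusted p 0.131 to 0.194, log2 fold change 1.07 to 1.09), and M21 has exons on the opposite strand across H3f3a, with H3f3aos itself at 1.01 and 0 CPM in Clu intact and 0 and 0.987 CPM in Nkx intact libraries.

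Set against the castrated Nkx group, Clu intact cells had more of 6 cluster genes (H3c2, H2bc12, H2bc13, H2bc14, H2ac4 and H1f1) and less of 3 (H2bc6, H3c7 and H1f3). These were 6 higher and 3 lower of 49 tested cluster genes, beside 8.82% of all tested genes called higher and 8.10% called lower. Both counts lie within a few genes of this background. At an unadjusted p under 0.05 they were 9 higher and 4 lower, a level at which all tested genes were not counted. Fewer cluster genes were called without Clu intact replicate 1 or 2 or Nkx intact replicate 1 or 2. The count over all tested genes fell in the same fits. The median log2 fold change was 0.38 for the cluster genes, with 31 of 49 positive, and -0.00 for all tested genes. No variant was called by edgeR, and 3 of the 8 had an unadjusted p under 0.05, all higher. DESeq2 called 2 higher, beside 1637 of all 13846 tested genes. Without Nkx castrate replicate 1 or 2 edgeR also called variants higher, and the count over all tested genes rose in the same fits.

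Of the genes that were higher, H3c2 had a log2 fold change of 5.86 ± 1.09 (SE, adjusted p = 0.0101, edgeR). H2bc12 was at least 35.8-fold higher against the floor of 3 counts over the castrate group (adjusted p = 0.0140, edgeR). H2ac4 had 19 and 23 counts in Clu intact and 2 and 1 in Nkx castrate libraries, a ratio of 19.5 (95% counting interval 6.24 to 98.5; adjusted p = 0.0437, edgeR). H2bc13 had 4.72 and 7.90 CPM in Clu intact and 1.29 and 0.887 CPM in Nkx castrate libraries (log2 fold change 2.52 ± 0.69, adjusted p = 0.0429), and H2bc14 had 3.37 and 7.14 CPM against 0.336 and 0 (4.80 ± 1.37, adjusted p = 0.0487). H1f1, the linker histone H1.1, had 8.43 and 21.2 CPM in Clu intact and 3.02 and 3.84 CPM in Nkx castrate libraries (2.11 ± 0.58, adjusted p = 0.0426). In all 6 the Clu intact libraries lay above the Nkx castrate ones, and replicate 2 was the higher Clu intact library in each. Without Clu intact replicate 2 all 6 calls were lost, with adjusted p of 0.0853 for H3c2, 0.153 for H2bc12, 0.345 for H2ac4, 0.386 for H2bc13, 0.350 for H2bc14 and 0.427 for H1f1. Only H3c2 stayed called in the fits without each of the other 5 libraries, and its log2 fold change was 5.02 without Nkx castrate replicate 2, where that of H2bc14 was 3.93. Without Nkx castrate replicate 1 the castrate group had no count of either gene and no fold is given.

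Of the genes that were lower in Clu intact, H2bc6 had a log2 fold change of -1.95 ± 0.31 (adjusted p = 0.00533, edgeR) and H3c7, at 1.18 and 2.07 CPM in Clu intact and 8.40 and 12.5 CPM in Nkx castrate libraries, one of -2.68 ± 0.52 (adjusted p = 0.0114). H1f3, the linker histone H1.3, had 32.9 and 47.3 CPM in Clu intact and 76.9 and 80.7 CPM in Nkx castrate libraries (-0.98 ± 0.25, adjusted p = 0.0351, edgeR). The groups did not overlap for any of the 3. Without Clu intact replicate 1 the adjusted p was 0.0517 for H2bc6, 0.0909 for H3c7 and 0.251 for H1f3, without Clu intact replicate 2 it was 0.0554 for H3c7 and 0.0872 for H1f3, and H1f3 also missed the threshold without Nkx intact replicate 1 or 2 (0.0597 and 0.0583). The linker genes thus went both ways, with H1f1 higher and H1f3 lower, while H1f2 (218 and 206 CPM in Clu intact, 325 and 278 in Nkx castrate) did not pass the test (-0.51 ± 0.17, adjusted p = 0.0784).

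H3f3a stood at the threshold in this comparison. It had 138 CPM in both Clu intact libraries and 57.7 and 95.7 CPM in Nkx castrate libraries, with a log2 fold change of 0.85 ± 0.24 and an adjusted p of 0.05004 (edgeR), just above 0.05. With library totals in place of TMM the adjusted p was 0.0267, and with DESeq2 it was 0.0158. H2az1 had 71.1 and 77.5 CPM in Clu intact libraries against 53.8 and 45.8 in Nkx castrate (0.57 ± 0.18, adjusted p = 0.0676), so that its middle place between Nkx castrate and Nkx intact was not past the test on this side.

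**Figure D4:**
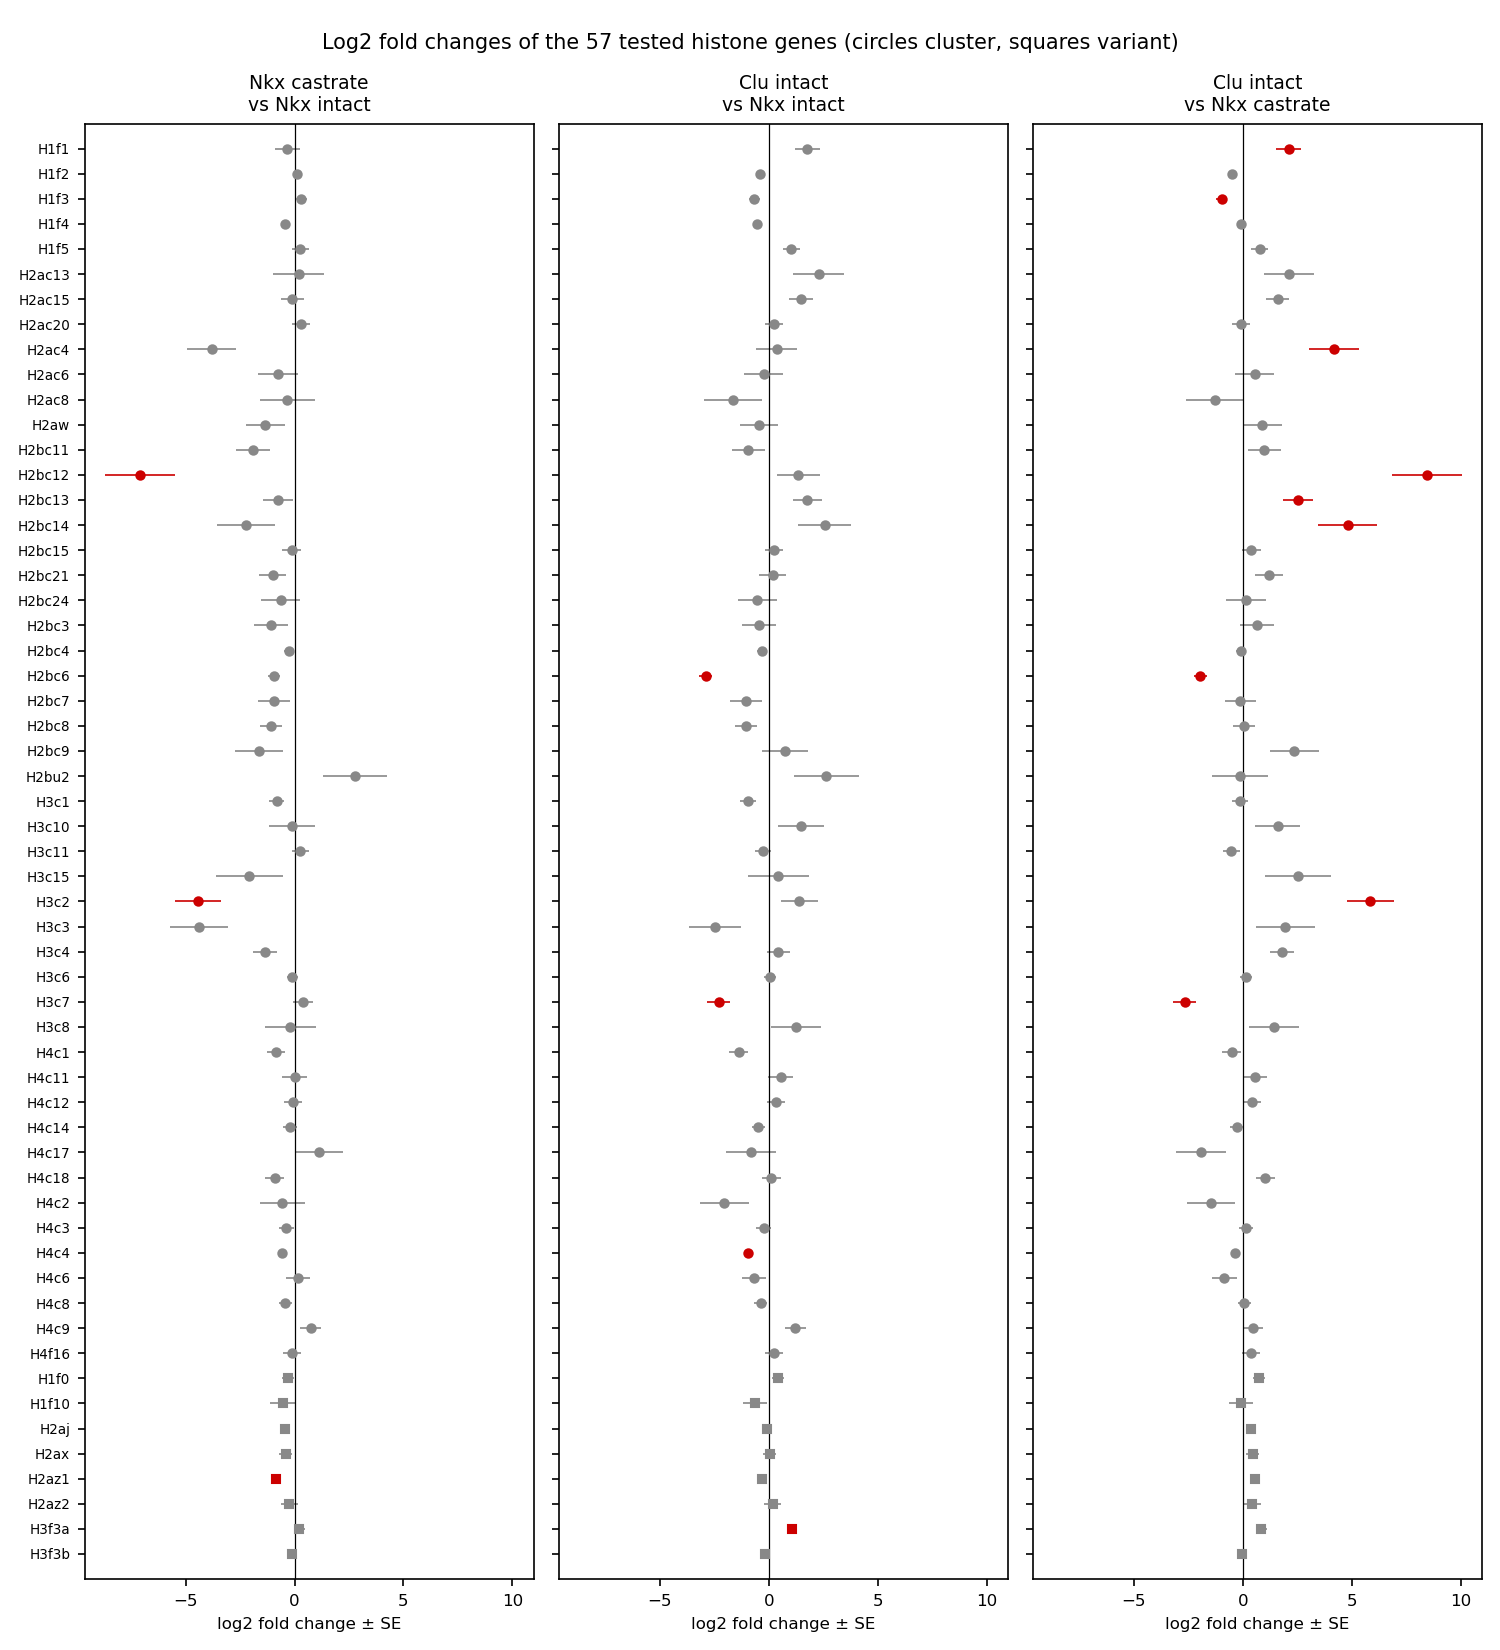
Log2 fold changes (points, with the model's SE as bars; all panels share one axis) of the 49 tested cluster genes (circles) and 8 tested variants (squares) in the 3 comparisons, ordered by class and family, with called genes in red. Most cluster genes lie left of 0 for Nkx castrate over Nkx intact (37 of 49), and the called genes of Clu intact over Nkx castrate lie on both sides (6 right, 3 left). The position of H2bc12 in both comparisons with Nkx castrate, which had no count of it, depends on the prior count of the fit and is no bound.

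Most of the more abundant cluster genes, those with a mean of at least 5 CPM, were called in no comparison, and a few of these lay apart between groups without passing the test. Among H1 genes, H1f5 (linker histone H1.5) had 15.8 and 23.5 CPM in Clu intact, 10.6 and 12.4 in Nkx castrate libraries and 12.4 and 6.71 in Nkx intact libraries, with the Clu intact values above the 4 others (Clu intact over Nkx intact, log2 fold change 1.04 ± 0.40, adjusted p = 0.146). In the H2A and H2B families H2ac20 lay between 5.72 and 7.71 CPM, H2bc4 between 25.9 and 39.9 and H2bc15 between 6.72 and 13.9 CPM over all 6 libraries. H2bc8 had 4.47 and 7.52 CPM in Clu intact, 7.84 and 3.77 in Nkx castrate libraries and 11.2 and 13.4 in Nkx intact libraries, with both Nkx intact values above the others (Nkx castrate over Nkx intact, -1.08 ± 0.50, adjusted p = 0.247). Of the H3 genes, H3c1 had 7.42 and 11.2, 9.29 and 11.1, and 20.4 and 15.8 CPM in the same order of groups (Clu intact over Nkx intact, -0.96 ± 0.36, adjusted p = 0.136), whereas H3c6 lay between 24.6 and 36.7 CPM and H3c11 between 7.08 and 12.9 CPM in all libraries. Of the H4 genes, H4c1 had 5.31 and 10.3, 12.4 and 9.97, and 25.04 and 15.4 CPM (Clu intact over Nkx intact, -1.37 ± 0.43, adjusted p = 0.0868). H4c9 ran the other way, with 7.17 and 8.93, 5.71 and 5.84, and 2.96 and 3.95 CPM (1.22 ± 0.47, adjusted p = 0.152). H4c3, H4c6, H4c8, H4c12, H4c14, H4c18 and H4f16 lay between 3.20 and 27.8 CPM, and none of their tests gave an adjusted p under 0.05. The remaining variants were H1f0, the linker histone of resting and differentiated cells, at 85.0 and 66.7 CPM in Clu intact, 34.0 and 57.7 in Nkx castrate libraries and 58.6 and 55.3 in Nkx intact (Clu intact over Nkx castrate, 0.73 ± 0.28, adjusted p = 0.112), H1f10 (H1X) between 3.42 and 10.5 CPM, H2aj (H2A.J) between 26.4 and 38.1, and H2ax between 13.9 and 23.8 CPM.

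Cluster genes were also set side by side by where their annotated transcript ends, a grouping chosen after the values were seen and given with no test. In M21 21 cluster genes end by the stem-loop (3 to 74 bases after it), 22 run past it (151 to 4884 bases), 15 have no annotated 3′ UTR, 7 have a UTR without the motif and 2 were not matched. Genes that end by the stem-loop summed to 66.1 and 93.3 CPM in Clu intact, 48.3 and 64.9 in Nkx castrate libraries and 87.7 and 87.5 in Nkx intact libraries, a ratio of group means of 0.646 for Nkx castrate over Nkx intact and of 1.41 for Clu intact over Nkx castrate. Genes that run past it, which include H1f2, H1f3, H1f4 and H4c4, summed to 509 and 556, 679.9 and 699, and 799 and 745 CPM, with ratios of 0.893 and 0.773 in the same comparisons. The median log2 fold change of Nkx castrate over Nkx intact was -0.94 over the 15 tested genes of the first kind and -0.35 over the 20 of the second, and that of Clu intact over Nkx intact was -0.45 and -0.33. In Clu intact over Nkx castrate the medians were 0.64 and 0.09, with 9 of 15 and 11 of 20 values positive. The tested genes of the second kind were thus not lower as a set. Only the called genes split: H3c2, H2bc12, H2bc14 and H2ac4 end by the stem-loop and were higher, and H2bc6, H3c7 and H1f3 run past it and were lower. Of the other 2 that were higher, H2bc13 has no annotated 3′ UTR and H1f1 has one without the motif. The 8 tested genes without an annotated UTR had medians of -0.10, 1.26 and 1.18 in Nkx castrate over Nkx intact, Clu intact over Nkx intact and Clu intact over Nkx castrate.

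**Figure D5:**
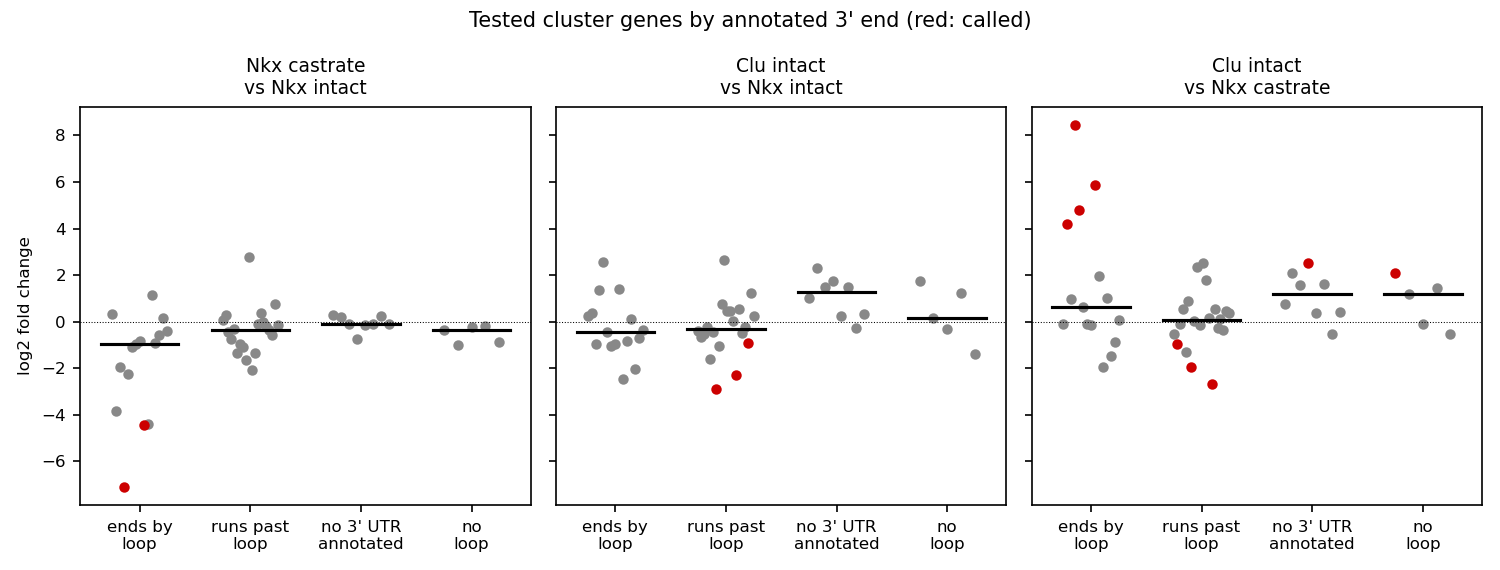
Log2 fold changes of tested cluster genes (points, called ones in red; line, median) by annotated 3′ end in the 3 comparisons. In Clu intact over Nkx castrate the 4 called genes that end by the stem-loop lie above 0 and the 3 called genes that run past it lie below. The medians of both kinds lie above 0 there (0.64 and 0.09).

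The genes of S phase and mitosis, with which cluster histone messages normally rise and fall, were compared in the same fits from lists chosen with earlier results of these data known. Of 30 S-phase genes 0 were called higher and 2 lower in Nkx castrate over Nkx intact (median log2 fold change -0.26), 3 higher and 0 lower in Clu intact over Nkx intact (0.61), and 5 higher and 0 lower in Clu intact over Nkx castrate (0.61). Of all tested genes 4.59% were called lower in the first of these comparisons, and 6.29% and 8.82% higher in the other two, so that the S-phase counts lie within a few genes of the background. Rrm2, a subunit of the enzyme that makes deoxynucleotides, had 15.7 and 19.7 CPM in Clu intact, 3.19 and 2.96 in Nkx castrate libraries and 14.2 and 18.3 in Nkx intact libraries (Nkx castrate over Nkx intact, -2.40, adjusted p = 0.00673, edgeR). Uhrf1, which keeps DNA methylation at replication, had 17.3 and 32.0, 1.23 and 1.18, and 7.65 and 4.74 CPM and differed in all 3 comparisons (log2 fold change -2.35, 1.99 and 4.34). Mcm6 and Mcm5, parts of the replicative helicase, had 68.0 and 107 and 11.9 and 27.4 CPM in Clu intact and 27.8 and 21.9 and 5.09 and 6.06 CPM in Nkx castrate libraries, and were called higher in Clu intact. Tyms, which makes thymidylate, was higher in Clu intact over Nkx intact (8.77 and 11.7 CPM against 3.44 and 2.96). Pcna, the sliding clamp, was called in no comparison and lay between 29.3 and 51.7 CPM. The counts moved with single libraries: in the order of the 3 comparisons, higher and lower calls added up, they were 1, 0 and 2 without Clu intact replicate 2, 2, 0 and 4 without replicate 1, 1, 1 and 3 without Nkx intact replicate 1, 0, 0 and 3 without replicate 2, and 4, 6 and 8 without Nkx castrate replicate 1 (2, 6 and 6 without replicate 2).

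Of 24 G2 and mitosis genes 0 were called higher and 3 lower in Nkx castrate over Nkx intact (median -1.78), 1 higher and 0 lower in Clu intact over Nkx intact (1.61) and 14 higher and 0 lower in Clu intact over Nkx castrate (3.37), beside the same 4.59% lower, 6.29% higher and 8.82% higher of all tested genes. The 1 gene higher in Clu intact over Nkx intact is no more than this background. These counts became 1, 0 and 2 without Clu intact replicate 2, 2, 0 and 6 without replicate 1, 0, 0 and 7 without Nkx intact replicate 1 or 2, 9, 10 and 18 without Nkx castrate replicate 1 and 6, 10 and 13 without replicate 2, each in the same direction. Mki67, the proliferation marker, had 68.3 and 120 CPM in Clu intact, 6.94 and 1.33 in Nkx castrate libraries and 22.0 and 31.6 in Nkx intact libraries. It fell in Nkx castrate over Nkx intact (-2.66, adjusted p = 0.0421, edgeR) and was higher in Clu intact over Nkx castrate (4.47, adjusted p = 0.00449). Top2a, the topoisomerase of dividing cells, followed with 31.1 and 51.0, 3.14 and 0.739, and 13.4 and 22.8 CPM. Hmgb2, a chromatin protein of dividing cells, had 99.1 and 117, 48.0 and 45.4, and 88.4 and 85.5 CPM, and Cenpe, a kinetochore motor, 10.03 and 15.04, 2.74 and 4.58, and 3.06 and 2.37 CPM. Aurkb, Bub1 and Pbk, mitotic kinases, had at most 0.112 CPM in the Nkx castrate libraries and 1.35 to 3.57 CPM in the Clu intact ones, and were called higher there. The order of the groups for Mki67 (Clu intact highest, Nkx castrate lowest) was that of H3c2, H2bc12 and H2bc14, and was not that of H2bc6, H4c4 or the summed cluster level, which were lowest in Clu intact.

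The machinery that makes and removes histone messages was read in the same fits. Of 20 genes for transcription, 3′ end processing and decay of histone messages 0 were called in Nkx castrate over Nkx intact and in Clu intact over Nkx intact, where the unadjusted counts under 0.05 were 2 and 4, all higher, and DESeq2 called 1 higher in each. In Clu intact over Nkx castrate 2 were higher and 1 was lower, shares near the 8.82% and 8.10% of all tested genes, and no gene of the list was called there without Clu intact replicate 1 or 2. Slbp lay between 31.2 and 39.7 CPM in all libraries (33.3 and 37.04 CPM in Clu intact, 32.1 and 31.2 in Nkx castrate, 37.1 and 39.7 in Nkx intact), and its log2 fold changes were -0.28, -0.13 and 0.15 in Nkx castrate over Nkx intact, Clu intact over Nkx intact and Clu intact over Nkx castrate. Ncbp2, a nuclear cap-binding subunit, had 41.6 and 48.0 CPM in Clu intact and 15.96 and 20.8 in Nkx castrate libraries (1.28, adjusted p = 0.0281, edgeR), and Cstf2t, a cleavage factor, 46.2 and 45.3 against 21.5 and 29.6 CPM (0.84, adjusted p = 0.0455). Smg1, a kinase of nonsense-mediated decay, had 324 and 309 CPM in Clu intact and 459.7 and 475 in Nkx castrate libraries (-0.56, adjusted p = 0.0457).

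For 30 histone chaperones and loaders of variants the unadjusted counts under 0.05 were 3, 1 and 1 higher and 2, 4 and 5 lower in the 3 comparisons. All tested genes were not counted at that level. DESeq2 called 2, 0 and 1 higher and 1, 3 and 3 lower, beside 1021, 1317 and 1637 higher and 994, 1136 and 1725 lower of all tested genes. By the adjusted p of edgeR 1 was lower in Nkx castrate over Nkx intact, 1 in Clu intact over Nkx intact and 3 in Clu intact over Nkx castrate. None were higher, and 4.59%, 5.0% and 8.10% of all tested genes were called lower in these comparisons. The counts fell to 0 without Clu intact replicate 1 in all 3 comparisons, and lay between 0 and 4 over the other left-out libraries. Rbbp7, a histone-binding WD-repeat protein, had 279 and 329.6 CPM in Nkx castrate libraries and 511 and 505 in Nkx intact libraries (-0.74, adjusted p = 0.0386). Hjurp, which loads the centromeric H3 variant, had 15.8 and 20.6 CPM in Clu intact, 76.5 and 43.2 in Nkx castrate libraries and 63.3 and 71.8 in Nkx intact libraries, and was lower in Clu intact against both (-1.89 against Nkx intact, -1.72 against Nkx castrate), whereas Mki67 was highest in Clu intact. Npm1, a nucleolar chaperone, and Supt6, a chaperone of elongating polymerase, were lower in Clu intact over Nkx castrate, at 246 and 269.8 against 449 and 681 CPM and at 326 and 315 against 550.3 and 550.0 CPM. Among histone genes that the symbol rule leaves out, 3 of 4 were in the table and 0 were called, with unadjusted counts under 0.05 of 0, 1 and 1, all higher. Macroh2a1, which encodes macroH2A, had 85.8 and 93.9 CPM in Clu intact, 58.3 and 58.7 in Nkx castrate libraries and 62.1 and 47.0 in Nkx intact libraries, Macroh2a2 lay between 6.55 and 15.002, and Cenpa, the centromeric H3, between 1.03 and 3.25 CPM.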

How the data were processed

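The deposited table holds the authors' raw read counts per gene symbol in 6 libraries (whole numbers, not normalized; 4599 of 24498 genes without a count). Per the labels, cells positive for the marker were sorted, and stranded libraries were made from 2 ng of their total RNA with a low-input SMARTer kit. The submitters' processing notes name the build GRCm39 and the tools STAR 2.7.9a, FastQC 0.11.9 and featureCounts in Subread 2.0.1. Not given in the sources used here are the annotation release, the read length, the strand setting, how multiply aligned reads and molecular identifiers were treated, and any sequencing batch. Intervals and floors cover counting error only.

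Genes were filtered with edgeR 4.0.16 in R 4.3.3 (filterByExpr over the 3 groups, 13846 kept), scaled by TMM (factors 0.945 to 1.04) and modelled by glmQLFit over all 6 libraries, each group having its own mean (biological coefficient of variation 33.7%, 3 residual degrees of freedom). Each comparison is a two-sided quasi-likelihood test, Benjamini-Hochberg adjusted over all tested genes. CPM values are TMM-scaled, fold changes are log2, and SE comes from the model. Levels per kilobase use the exon length in GENCODE M21. DESeq2 1.42.0 and limma 3.58.1 served as alternatives. The steps were tested on simulated counts.

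Histone members and all lists were chosen with earlier results of these data known. H2aw and H2bu2 were classed as cluster genes by their older symbols, a choice made after the table was seen. Named genes are all histone genes with a mean of at least 5 CPM or a call, up to 3 called genes of each other list and comparison with the largest change, and Slbp, Mki67 and Pcna. Genome builds differ between the counts (GRCm39) and the references (GRCm38), so sequences were matched by symbol and no coordinate of the counts is used. RefSeq windows were found for 61 cluster and 34 variant genes. Sequence shared between transcripts was counted in 75-base stretches of M21 transcripts. Replicates of a group differed in 15783 to 18753 genes, and no library was a copy of another.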

Additional observations from a re-analysis of the deposited data

How the results depend on the processing

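No named gene that was called in the main fit or in the alternative changed direction between them. Of 2591 checks 2325 kept their side of the threshold, 176 lost the call and 90 gained one. The direction of genes called in neither fit was not checked. The cluster calls of Nkx castrate over Nkx intact (2) became 4 with DESeq2 and 0 with limma-voom or with only the 2 groups fitted, and 0 to 4 when single libraries were left out. The variant call there (1) became 0 with only the 2 groups and 0 to 2 without single libraries. The 3 cluster calls of Clu intact over Nkx intact became 5 without a filter, 6 with DESeq2, 10 with only the 2 groups and 1 to 10 without single libraries, and the variant call became 0 to 1. The 9 cluster calls of Clu intact over Nkx castrate became 4 with limma-voom or only the 2 groups, and 1 to 10 without single libraries. The 0 variant calls there became 1 with library totals, without rRNA genes, with at least 1 CPM in 4 libraries, with limma-voom or with the replicate block, 2 without a filter or with DESeq2, and 0 to 3 without single libraries. Without the most abundant gene the cluster ratio was 0.784 for Nkx castrate over Nkx intact, and the variant ratio was 1.24 for Clu intact over Nkx intact and 1.54 for Clu intact over Nkx castrate. The cause of these shifts was not tested. Calls over all tested genes moved too when only the 2 groups were fitted. They went from 871 higher and 692 lower to 1761 and 1548 in Clu intact over Nkx intact, and from 556 and 636 to 297 and 374 in Nkx castrate over Nkx intact. The correlation of log2(CPM + 1) between the 2 libraries of a group was 0.969 in Nkx castrate, 0.991 in Clu intact and 0.988 in Nkx intact. Whether equal replicate numbers mark pairs or a shared batch cannot be settled with 2 libraries a group (correlations of deviations 0.0437 to 0.235, all positive). With the replicate block the cluster calls were 2, 3 and 6 in the 3 comparisons and the variant calls 1, 1 and 1. Over all tested genes the block raised the calls in all 3, from 556 higher and 636 lower to 711 and 800 in Nkx castrate over Nkx intact. Classing H2aw and H2bu2 as variants, tried after seeing the data, changed no count of calls. With 2 libraries a group and levels of a few CPM, small differences of most cluster genes could not be detected.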
